A study of Mus musculus with 6 samples.

Results

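The DLK, LZK and JNK cascade was examined in mouse retina 2 days after optic nerve crush (ONC) through 10 genes chosen by their symbols, of 35485 genes in the deposited tables. These are the MAP kinase kinase kinases (MAP3Ks) Map3k12 (DLK) and Map3k13 (LZK), the MAP kinase kinases (MAP2Ks) Map2k4 (MKK4) and Map2k7 (MKK7), the c-Jun N-terminal kinases Mapk8 (JNK1), Mapk9 (JNK2) and Mapk10 (JNK3), and the JNK-interacting scaffold genes Mapk8ip1 (JIP1), Mapk8ip2 (JIP2) and Mapk8ip3 (JIP3). DLK and LZK are activated in neurons when axons are damaged, they phosphorylate MKK4 and MKK7, and these in turn phosphorylate the JNKs on a threonine and a tyrosine of the activation loop. Active JNK phosphorylates c-Jun and other transcription factors, and in retinal ganglion cells (RGCs) this relay is known as a signal from the injured axon to the nucleus that precedes cell death. The steps of the cascade are mainly regulated by phosphorylation and protein turnover, which RNA sequencing does not measure.

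RNA of whole retinas from wild-type C57BL/6 mice at 12 weeks of age was sequenced in 3 ONC and 3 sham samples, and each sample was a combination of RNA from 6 retinas of 6 mice. In the ONC group (NC in the sample titles) the nerve was crushed for 10 seconds at 2 mm from the globe, and in the sham group it was exposed without being crushed. The replicates are pools of different animals, so the tests measure the spread between pools. In such bulk RNA, fewer cells of a type and less RNA per cell cannot be told apart.

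The stretch of the 3 JNK coding sequences that encodes the activation loop shows how closely the JNK genes resemble each other and where MKK4 and MKK7 act. The capitals mark the codons of the threonine-proline-tyrosine motif, whose threonine and tyrosine are the phosphorylated residues, and the sequences are from the mouse GENCODE transcripts.
Mapk8: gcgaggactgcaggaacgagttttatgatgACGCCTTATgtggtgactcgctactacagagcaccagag
Mapk9: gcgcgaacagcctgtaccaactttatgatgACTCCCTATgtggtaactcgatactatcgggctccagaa
Mapk10: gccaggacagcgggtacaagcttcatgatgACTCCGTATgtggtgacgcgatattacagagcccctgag
Over these 69 bases Mapk8 and Mapk10 differed at 14 positions, while Mapk9 differed from each of the others at 18. Along the whole coding sequences, the most similar windows of 100 bases, the length of a read, differed by 13 bases between Mapk8 and Mapk9, by 12 between Mapk8 and Mapk10 and by 16 between Mapk9 and Mapk10. The authors' mapping allowed 2 mismatches. All exon reads of the 3 JNK genes were uniquely mapped, and the same held for 9 of the 10 genes in every sample. The exception was Map3k12, in which 87.9% to 90.5% of the exon reads were unique.

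Exon reads summed over all genes ranged from 17343945 to 18349331 in sham and from 20019818 to 20358008 in ONC. The share of reads on genes that fell on exons was 70.9% to 76.6% in sham and 78.5% to 80.4% in ONC, without overlap, and was lowest in sham 3. Because the deposited RPKM values (a read count per kilobase of exon and library size) take all reads on genes as the library size, introns included, the median log2 fold change (log2FC) of all tested genes was 0.13 on that scale, against 0.01 after TMM normalization of the exon reads. Changes are therefore given from the TMM-normalized exon reads, as CPM (counts scaled to a common library size), and levels of different genes are compared in RPKM. Of the 10 RGC markers listed, 8 fell, 1 rose (Slc17a6) and 1 did not pass the test (Isl1), and their summed CPM was 1180 to 1308 in sham and 873.6 to 957.8 in ONC, without overlap. Of 9 microglia and macrophage markers, 4 rose, and their summed CPM was 41.1 to 46.0 in sham and 62.3 to 70.0 in ONC. The summed markers of rods, cones, bipolar cells, amacrine cells, Müller glia, astrocytes, vessels and pigment epithelium overlapped between the groups, and no listed marker was at 0 in every sample.

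The transcripts of the cascade itself changed little in whole-retina RNA. All 10 genes were expressed above the filter (mean RPKM over 0.3 in either group), with 889 to 4807 exon reads per gene and sample. After ONC, 2 of them had fallen by edgeR's quasi-likelihood test at a Benjamini-Hochberg adjusted p under 0.1 (Mapk10 and Map3k13), none had risen and 8 did not pass, while over all 13670 genes tested the share that passed was 6.09%, and 3.72% were lower in ONC. None of the 10 also had a fold change above 1.5, the rule by which 1.66% of all genes were differentially expressed, and 3 had an unadjusted p under 0.05, against 16.7% of all genes. The CPM of 3 of the 10 did not overlap between the groups, all 3 lower in ONC, against 21.8% of all genes without overlap. The log2FC of the members ran from -0.35 to 0.12 with a median of -0.03, and the median of all tested genes was 0.01. The depth was enough to bound these changes in whole-retina RNA. The 95% interval of each of the 10 lay within a fold change of 1.5 in either direction, which was the case for 72.4% of all genes. RGCs are described in the paper as a very small part of the retina, so these intervals do not bound a change within RGCs.

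In sham retina the scaffold genes and Map2k7 were the most abundant members and the MAP3Ks the least. Mapk8ip3 stood highest at 32.2 ± 2.26 RPKM (SD, n = 3), in the 88.4th percentile of the tested genes. It was followed by Mapk8ip1 at 27.0 ± 0.768, Mapk8ip2 at 26.7 ± 0.603 and Map2k7 at 26.6 ± 2.15 RPKM, whose sham values overlapped each other. Mapk9 followed at 22.1 ± 1.08 RPKM, separate from its neighbours on either side. Map2k4 at 14.7 ± 1.36, Mapk8 at 12.9 ± 1.53, Mapk10 at 12.2 ± 0.489 and Map3k12 at 11.6 ± 0.676 RPKM formed a run in which each overlapped the next. Map3k13 was the lowest at 6.17 ± 0.496 RPKM, in the 45.9th percentile, and did not overlap any other member. In ONC retina Map2k7 overlapped Mapk8ip1, and Map3k12 overlapped Mapk8. The values of Mapk10, which had overlapped those of Mapk8 and of Map3k12 in sham, were below both in ONC.

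**Figure D1:**
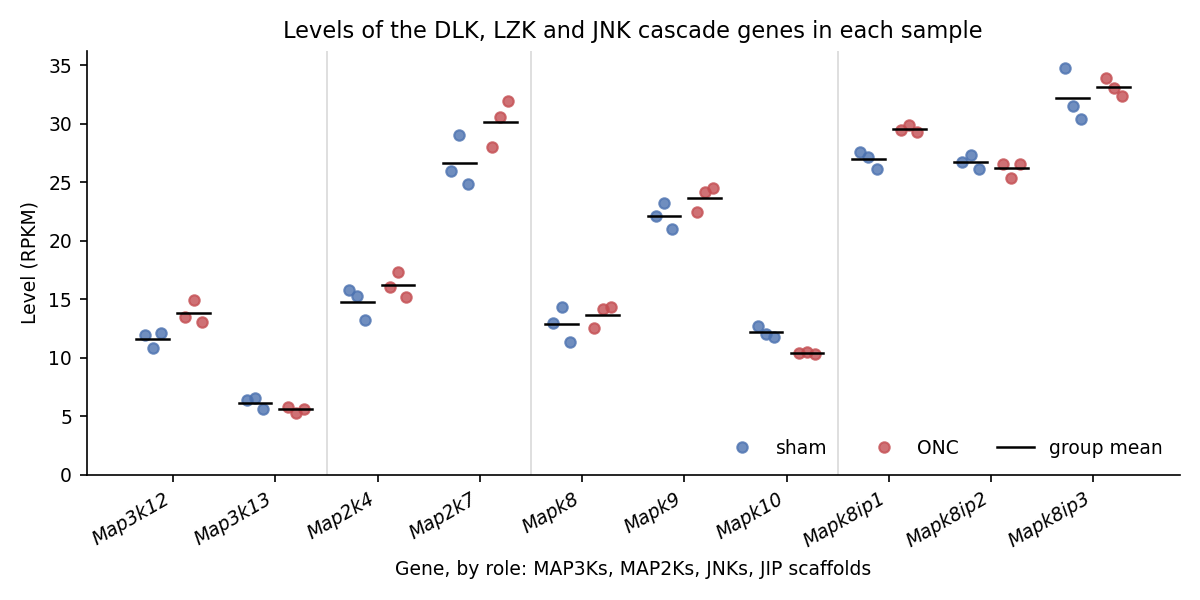
RPKM of the 10 cascade genes in each of the 3 sham (blue) and 3 ONC (red) samples, with the group mean as a black bar and grey lines between MAP3Ks, MAP2Ks, JNKs and JIP scaffolds. Mapk10 is the gene whose 3 ONC points, between 10.4 and 10.5, all lie below its 3 sham points, and Map3k13 is the lowest gene in both groups.

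Map3k12 encodes DLK, the kinase on which the retrograde injury signal of RGCs depends. Its CPM was 86.9, 79.2 and 96.6 in the sham samples and 95.4, 100.3 and 90.0 in the ONC samples. The groups overlapped, with sham 2 the lowest sample and ONC 2 the highest. The log2FC was 0.12 (SE 0.076, adjusted p = 0.451 by edgeR's quasi-likelihood test with Benjamini-Hochberg adjustment), and the 95% interval of the fold change was 0.974 to 1.21. In RPKM the ONC samples (13.0 to 14.9) all lay above the sham samples (10.9 to 12.1), and when exon reads were divided by the reads on whole genes, the log2FC was 0.25 with an adjusted p of 0.0687 by edgeR's test. This was the one alternative of 20 that called Map3k12, and limma on log2 RPKM did not (adjusted p by limma 0.141 to 0.145). In the deposited annotation Map3k12 overlaps 2413 bases of Pcbp2, an abundant RNA-binding protein gene with 17442 to 21137 exon reads per sample, and the counting is not stated to use strand, so the reads of these genes may be shared. With unique exon reads the log2FC of Map3k12 was 0.13.

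Map3k13 encodes LZK, which is closely related to DLK and can act beside it in injured RGCs. Its CPM was 56.1, 57.8 and 54.2 in sham and 49.5, 43.4 and 47.4 in ONC. All ONC values lay below all sham values, as they did for 10.8% of all tested genes. Map3k13 fell by 16.5% (log2FC -0.26, SE 0.081, adjusted p = 0.0829 by edgeR's quasi-likelihood test with Benjamini-Hochberg adjustment). This call is not firm, because it held in 7 of 20 alternative analyses, although the log2FC was negative in all 20. The adjusted p by edgeR was 0.165, 0.280 and 0.167 without sham 1, sham 2 and sham 3, and 0.305 and 0.187 without ONC 2 and ONC 3. In RPKM the groups overlapped.

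Map2k4 and Map2k7 encode the kinases that directly activate JNK, MKK4 preferring the tyrosine and MKK7 the threonine of the loop printed above. The CPM of Map2k4 was 76.7, 74.2 and 70.3 in sham and 75.6, 78.0 and 70.2 in ONC. That of Map2k7 was 121, 136 and 127 in sham and 127, 132 and 141 in ONC. In both genes the groups overlapped throughout. The log2FC was 0.02 for Map2k4 (adjusted p = 0.939) and 0.06 for Map2k7 (adjusted p = 0.711) by edgeR's quasi-likelihood test with Benjamini-Hochberg adjustment. The 95% intervals of the fold changes were 0.911 to 1.12 and 0.946 to 1.14. The sign of the Map2k4 value turned when introns were counted too, when sham 3 was left out and when ONC 2 was left out.

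Among the JNK genes, Mapk10 was the one that changed. It encodes JNK3, the isoform that is largely restricted to the nervous system and that takes part in the death of RGCs after axonal injury. Its CPM was 120.7, 114 and 122 in sham and 95.6, 91.7 and 93.0 in ONC. The 3 ONC samples lay close together and all below the lowest sham sample. Mapk10 fell by 21.5% (log2FC -0.35, SE 0.063, 95% interval of the fold change 0.716 to 0.860, adjusted p = 0.00199 by edgeR's quasi-likelihood test with Benjamini-Hochberg adjustment), and it ranked 159th of the 13670 genes by p. It stayed past the threshold in 17 of 20 alternative analyses and was lower in all 20. The 3 that lost the call were those with limma on log2 RPKM (log2FC -0.21 to -0.23, adjusted p by limma 0.147 to 0.149). On the reads that cross exon-exon junctions, an analysis chosen after the data were seen, the log2FC of Mapk10 was -0.42 (SE 0.085, adjusted p = 0.00354 by edgeR). The summed RGC markers fell in the same samples, and their part in the lower Mapk10 was not tested.

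Mapk8 and Mapk9 encode JNK1 and JNK2, which are made in most tissues. The CPM of Mapk8 was 98.3, 109 and 93.9 in sham and 92.3, 99.3 and 103 in ONC. That of Mapk9 was 139, 145 and 144 in sham and 136, 139 and 145 in ONC. The groups overlapped in both genes, with sham 2 the highest sample of Mapk8. By edgeR's quasi-likelihood test with Benjamini-Hochberg adjustment the log2FC was -0.03 for Mapk8 (adjusted p = 0.859) and -0.02 for Mapk9 (adjusted p = 0.886). The 95% intervals of the fold changes were 0.881 to 1.08 and 0.902 to 1.07, and the small values of both genes turned positive (0.09 and 0.10) with the scaling of RPKM.

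The JIP scaffolds hold the kinases of the cascade together, and JIP3 also links them to the motor proteins that carry cargo along axons. Mapk8ip1 had CPM values of 126, 124 and 130.3 in sham and 130.2, 126 and 127 in ONC. Mapk8ip3 had 256, 233 and 246 in sham and 243, 225 and 226 in ONC. Both genes overlapped between the groups. The log2FC was 0.01 for Mapk8ip1 (adjusted p = 0.959) and -0.08 for Mapk8ip3 (adjusted p = 0.524) by edgeR's quasi-likelihood test with Benjamini-Hochberg adjustment, and the sign of Mapk8ip3 turned positive (0.04) with the scaling of RPKM. Mapk8ip2, whose product is found mainly in neurons and neuroendocrine cells, had CPM values of 124, 127 and 133 in sham and 120.3, 109 and 117 in ONC. All ONC values were below all sham values, with ONC 2 the lowest, but the gene did not pass the test (log2FC -0.15, SE 0.064, adjusted p = 0.230 by edgeR's quasi-likelihood test with Benjamini-Hochberg adjustment). Without ONC 1 the same test gave a log2FC of -0.18 and an adjusted p of 0.0618.

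**Figure D2:**
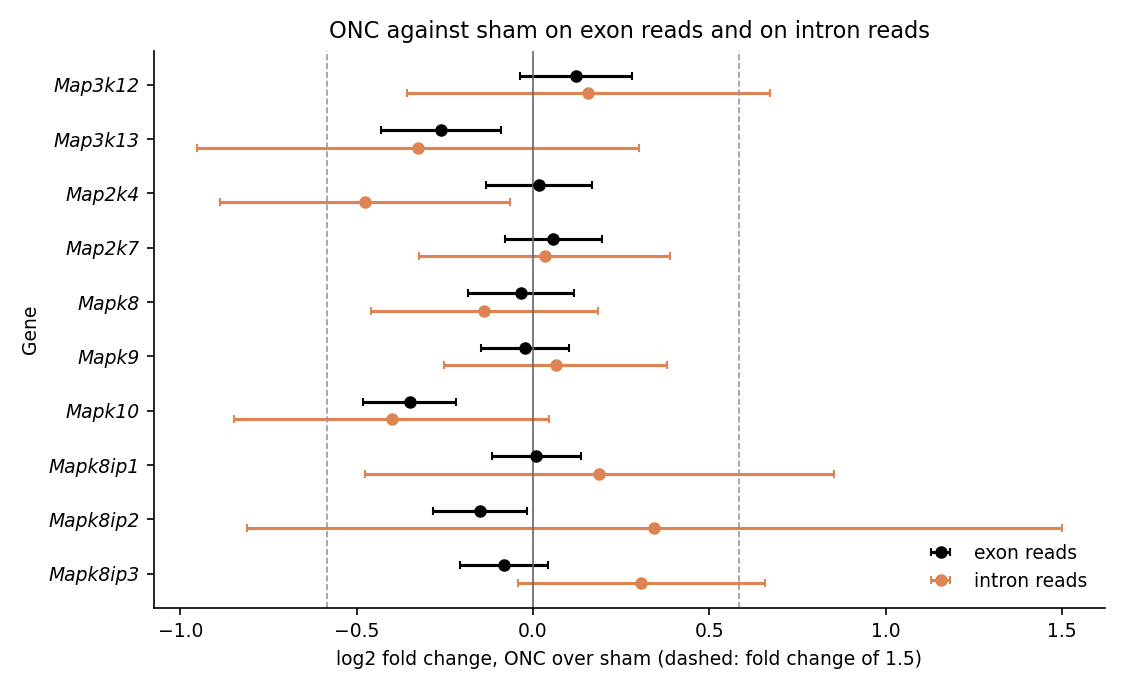
Log2 fold change of each cascade gene, ONC over sham, with its 95% interval, from exon reads (black) and from intron reads (orange), by edgeR's quasi-likelihood fit; dashed lines mark a fold change of 1.5. The exon intervals of Map3k13, Mapk10 and Mapk8ip2 lie below 0 and all 10 lie inside the dashed lines, while the intron intervals are wider.

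Within the JNK genes the share of Mapk10 was lower after ONC. Shares of the summed RPKM within a sample do not depend on the scaling between samples, and they were not tested. Mapk10 made up 26.6%, 24.3% and 26.7% of the JNK RPKM in sham and 22.9%, 21.5% and 21.1% in ONC. Every ONC share was below every sham share, and the means differed by -4.06 percentage points (-3.65 to -4.84 when a sample was left out). The share of Mapk9 was 46.9% ± 0.721 in sham and 49.6% ± 0.191 in ONC (SD, n = 3), without overlap. The share of Mapk8 was 27.2% ± 1.66 and 28.6% ± 0.839, with overlap. The shares of a class sum to the whole, so a lower share of Mapk10 raises the others, and the CPM of Mapk8 and Mapk9 overlapped between the groups as given above. In RPKM the summed JNK level overlapped between the groups, at 47.2 ± 2.80 in sham and 47.8 ± 2.08 in ONC. Unlike the shares, this sum carries the scaling of RPKM, which set the median log2FC of all tested genes at 0.13. After TMM normalization that median was 0.01. The sum was not formed from TMM-normalized reads, so the overlap does not show that summed JNK RNA was unchanged.

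Between the MAP3K genes the share of Map3k12 was higher in the ONC samples, and this was not tested. Map3k12 itself did not pass the test given above, and the call of Map3k13 was not firm. Map3k12 accounted for 65.3%, 62.4% and 68.4% of the summed RPKM of Map3k12 and Map3k13 in sham and for 70.1%, 73.7% and 69.7% in ONC. The ONC shares were all higher, although ONC 3 exceeded sham 3 by little. This share carries the limit given for reads shared with Pcbp2. The share of Map2k4 among both MAP2Ks was 35.6% ± 1.87 in sham and 35.0% ± 2.33 in ONC, with overlap. Among the scaffolds Mapk8ip1 took 31.4% ± 0.347 in sham and 33.3% ± 0.550 in ONC, without overlap, while the shares of Mapk8ip2 (31.1% and 29.5%) and Mapk8ip3 (37.5% and 37.3%) overlapped.

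**Figure D3:**
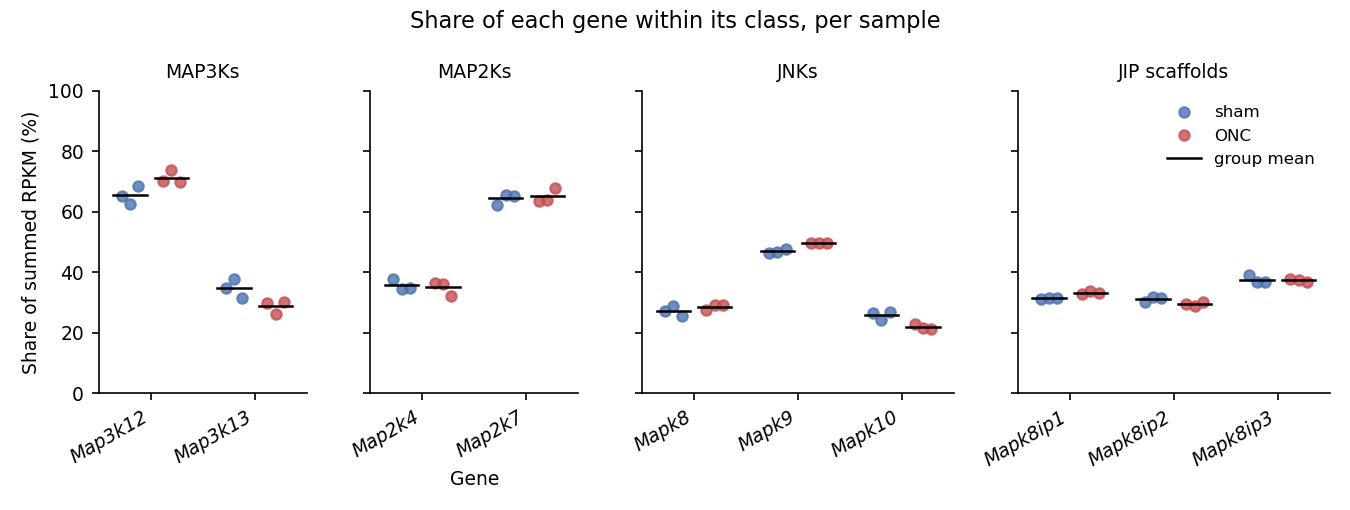
Share of each gene in the summed RPKM of its class, in percent, for the 3 sham (blue) and 3 ONC (red) samples, with the group mean as a black bar. The ONC points of Mapk10 (21.1% to 22.9%) lie below its sham points (24.3% to 26.7%), and those of Map3k12 (69.7% to 73.7%) lie above its sham points (62.4% to 68.4%).

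Reads on introns come mostly from RNA that has not been spliced, and they are a separate readout of the same genes. None of the 10 genes passed the edgeR test on intron reads (adjusted p under 0.1), where 2.75% of 13821 genes did and 2.23% were lower in ONC, and 1 had an unadjusted p under 0.05, against 17.3% of all genes. Intron reads per member and sample ran from 11 to 920, so that these values are less precise than those of exons. The gene with the lowest p was Map2k4, with 394, 416 and 624 intron reads in sham and 356, 283 and 350 in ONC. Sham 3 was the highest sample, and leaving it out moved the log2FC from -0.48 (SE 0.193, adjusted p = 0.221 by edgeR) to -0.29. With the library sizes and TMM factors of the exon reads the Map2k4 value was -0.76 and passed (adjusted p = 0.0691 by edgeR). Exons took 77.3%, 76.4% and 65.7% of the Map2k4 reads in sham and 80.8%, 84.9% and 80.7% in ONC, a difference in the direction of the exon share of all genes given above.

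For Mapk10 the intron reads numbered 385, 516 and 750 in sham and 423, 318 and 459 in ONC. After TMM normalization the groups overlapped, and the log2FC was -0.40 (SE 0.209, adjusted p = 0.344 by edgeR's quasi-likelihood test with Benjamini-Hochberg adjustment), with a 95% interval from -0.85 to 0.04. Without sham 3 it was -0.17. The data at this depth therefore do not show whether unspliced Mapk10 RNA differed. For Map3k13 there were 49 to 93 intron reads per sample, and the 95% interval of its log2FC ran from -0.95 to 0.30. The intron CPM of Mapk8ip3 was 81.8, 64.5 and 78.6 in sham and 108, 84.1 and 86.6 in ONC. The gene did not pass (log2FC 0.31, adjusted p = 0.357 by edgeR). On reads across exon-intron borders, chosen after the data were seen, its log2FC was -0.52 (SE 0.237).

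Around the cascade 10 lists were followed, of 102 genes, of which 95 were tested. Outside the list of injury genes 9 of 85 tested genes passed, beside 6.09% of all tested genes. Among the other MAP3Ks that feed JNK 1 of 12 fell, Taok1 (15.0 ± 1.13 RPKM in sham and 13.7 ± 1.46 in ONC, log2FC -0.25, adjusted p = 0.0643 by edgeR), and the call held in 10 of 20 alternatives. Among the MAP4Ks, which act above the MAP3Ks, 1 of 6 rose. This was Tnik, a kinase that is abundant in neurons, at 7.75, 7.78 and 6.88 RPKM in sham and 10.8, 10.2 and 10.1 in ONC (log2FC 0.35, adjusted p = 0.00430 by edgeR). With introns counted too, its log2FC was 0.15 and did not pass (adjusted p = 0.282 by edgeR). None of the 9 regulators of DLK turnover, palmitoylation or activity passed, nor did any of 8 other scaffolds and adaptors, by edgeR's test or by the DESeq2 Wald test, and in each list 2 genes had an unadjusted p under 0.05 by edgeR, beside 16.7% of all tested genes. The lowest p in the former list was that of Usp9x, a deubiquitinase (log2FC -0.19, adjusted p = 0.149 by edgeR), and in the latter that of Sh3rf1, a scaffold also called POSH (log2FC -0.39, adjusted p = 0.219 by edgeR). Some alternatives did call genes of these lists. With division by all reads on genes 1 regulator and 1 scaffold passed, and 1 regulator did with limma on log2 RPKM and without a filter. Without ONC 1, where 2031 of all genes passed, 3 regulators and 3 scaffolds did. The medians of these 4 lists lay between -0.0862 and -0.0049, beside 0.0099 for all tested genes.

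Of 9 tested phosphatases of JNK or other MAP kinases, Dusp1 was the only one that passed in the main analysis. Its level was 8.02, 7.70 and 7.41 RPKM in sham and 11.7, 12.5 and 13.2 in ONC, and it rose with a log2FC of 0.57 (SE 0.105, adjusted p = 0.00244 by edgeR). On junction reads it did not pass (log2FC 0.55, adjusted p = 0.299 by edgeR). In this list 2 genes passed without TMM, with division by all reads on genes, with limma on log2 RPKM and without a filter. There were also 2 with total gene reads or without ONC 2, and 3 without ONC 1. Of 11 other JNK substrates Bcl2l11, which encodes the pro-apoptotic BIM, rose (3.23 ± 0.212 and 4.72 ± 0.303 RPKM, log2FC 0.42, adjusted p = 0.0370 by edgeR), a call that held in 18 of 20 alternatives and was lost without sham 2 (log2FC 0.35, adjusted p = 0.195 by edgeR) and on junction reads (0.26, adjusted p = 0.852 by edgeR). Mapt, which encodes the axonal microtubule protein tau, fell (27.0 ± 0.839 and 24.5 ± 1.80 RPKM, log2FC -0.26, adjusted p = 0.0330 by edgeR), a call that held in 12 of 20 alternatives. The other 9 did not pass.

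Of 10 transcription factors downstream of JNK or DLK, 2 rose and 8 did not pass. Jun, the main target of JNK, was at 10.2, 8.91 and 8.46 RPKM in sham and 18.0, 18.3 and 19.0 in ONC. Every ONC sample was above every sham sample (log2FC 0.88, SE 0.080, adjusted p = 8.12e-07 by edgeR). Sox11, a developmental factor, was at 0.448, 0.286 and 0.247 RPKM in sham and 1.69, 2.07 and 2.04 in ONC (log2FC 2.45, SE 0.182, adjusted p = 4.59e-08 by edgeR). The median log2FC of this list was 0.20.

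The 10 injury genes that depend on DLK or JUN all rose, with log2FC from 0.34 to 4.47 and a median of 1.85, where 2.38% of all genes passed and were higher in ONC. The count of 10 fell to 8 without sham 1, to 7 without sham 2, sham 3 or ONC 3, to 9 without ONC 2, with unique exon reads or with total gene reads, and to 6 on junction reads, and Bbc3, Klf6 and Gadd45a, named here after their values were seen, had the highest adjusted p (0.0755, 0.0716 and 0.0531 by edgeR). Several of the 10 are among the most changed genes that the study named from these samples, so that their direction is not independent evidence. The 4 largest rises were Sprr1a (log2FC 4.47), Ecel1 (3.89), Hrk (2.75) and Chac1 (2.60). In the first 3 of these the sham baseline was low and uneven, with sham 1 the highest. Sprr1a had 24, 0 and 3 exon reads in the sham samples, against 223 to 245 in ONC, and its log2FC ran from 3.19 to 6.97 over the 20 alternatives, the highest being that without sham 1. Ecel1 had 45, 18 and 16 exon reads in sham and 372 to 532 in ONC, and Hrk had 49, 20 and 16 in sham and 208 to 235 in ONC. Hrk did not pass on junction reads (log2FC 0.26, adjusted p = 0.968 by edgeR). Sprr1a marks regenerating axons, Ecel1 is a membrane peptidase of injured neurons, Hrk is a pro-apoptotic BH3-only gene and Chac1 degrades glutathione in the stress response. Their levels in sham were low, from 0.225 to 1.27 RPKM on average. In whole-retina RNA the members of the cascade had log2FC between -0.35 and 0.12. In the same samples these 10 genes had values from 0.34 upward.

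In the neighbouring MAP kinase arms, too, most genes did not pass the test. In the p38 arm 1 of 7 rose, Mapk11 (p38 beta), from 4.22 ± 0.0882 to 6.24 ± 0.494 RPKM (log2FC 0.44, adjusted p = 0.0560 by edgeR, held in 15 of 20 alternatives). In the ERK arm 1 of 13 fell, Ksr2, a scaffold of RAF and MEK that is made mainly in neurons, from 1.36 ± 0.0411 to 0.917 ± 0.153 RPKM (log2FC -0.68, adjusted p = 0.0318 by edgeR, held in 12 of 20). The median log2FC was 0.04 in the p38 arm and 0.07 in the ERK arm.

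**Figure D4:**
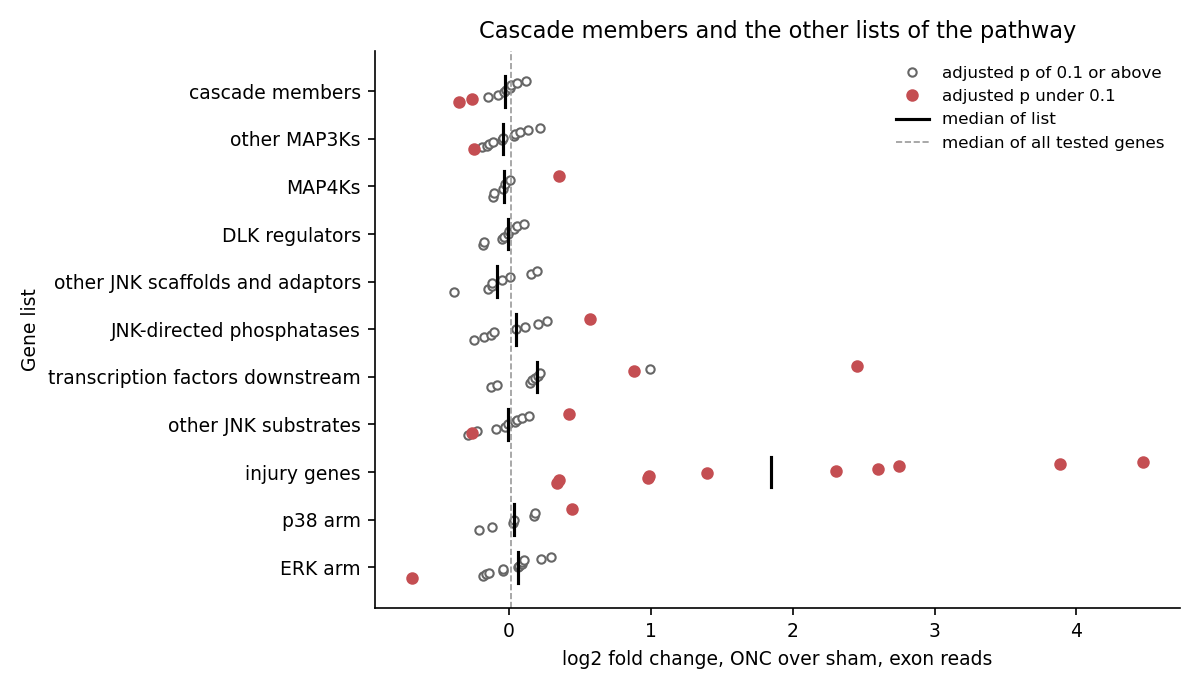
Log2 fold change, ONC over sham, of every tested gene of the cascade and of the 10 surrounding lists; filled red points have an adjusted p under 0.1 by edgeR's quasi-likelihood test, black bars are list medians and the dashed line is the median of all tested genes (0.01). The cascade members lie between -0.35 and 0.12, while the injury genes lie between 0.34 and 4.47.

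The genes whose pattern over the 6 samples was most like that of Mapk10 were Fbxl17, Pde7b, Hpca, Rab3a and N28178, among 11976 genes with a mean RPKM above 1. The measure was the root mean square difference of the centred log2 CPM, which was 0.034 for Fbxl17 and 0.040 for N28178. Fbxl17 is an F-box protein, Pde7b a cyclic AMP phosphodiesterase, Hpca the neuronal calcium sensor hippocalcin and Rab3a a synaptic vesicle GTPase. Their log2FC ran from -0.30 to -0.38, and Pde7b did not pass the test (adjusted p = 0.105 by edgeR). These genes were picked for closeness to Mapk10 in the same samples, so values near its own follow from the choice and are not separate evidence.

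For each member that passed, a listed promoter window is shown, the one whose start site is the start of the gene in the deposited tables. The reason is that AP-1 and ATF factors, which JNK activates, bind short known motifs. The RefSeq promoter table (GRCm38.p6) held 14 promoters of 9 members, and Mapk8ip1 had no entry. The motifs searched were TGANTCA (AP-1) and TGACGTCA (the cyclic AMP response element, bound by ATF factors), in capitals below where they occur, on both strands, and a run that matches one does not match the other. Mapk10 lies on chromosome 5 from 102907948 to 103211334 in the deposited tables, and of its 2 promoters in the table the one at chr5:103211285-103211584 (minus strand) holds TGACGTCA once. The other, at chr5:103058343-103058642 (minus strand), lies within the gene, holds neither motif and is not printed.
Mapk10: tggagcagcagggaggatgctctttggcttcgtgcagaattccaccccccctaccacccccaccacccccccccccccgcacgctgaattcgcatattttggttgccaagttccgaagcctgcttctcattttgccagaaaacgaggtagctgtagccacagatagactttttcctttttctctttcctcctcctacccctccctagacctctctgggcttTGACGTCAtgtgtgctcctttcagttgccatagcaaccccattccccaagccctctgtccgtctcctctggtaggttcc
Map3k13 lies on chromosome 16 from 21891969 to 21931877, and its listed window at chr16:21891719-21892018 (plus strand) holds neither motif. From the deposited start of the gene onward the bases open with atg, the letters of a start codon. The deposited start may therefore be that of the coding sequence, and the window may not hold the promoter.
Map3k13: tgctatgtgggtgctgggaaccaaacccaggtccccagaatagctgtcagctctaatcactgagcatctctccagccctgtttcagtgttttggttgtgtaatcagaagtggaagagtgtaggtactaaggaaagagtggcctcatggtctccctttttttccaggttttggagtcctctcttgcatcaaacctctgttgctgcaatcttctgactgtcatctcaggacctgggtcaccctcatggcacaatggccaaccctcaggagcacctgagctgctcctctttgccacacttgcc
TGACGTCA occurred in 1 of the 14 member promoters and in 1.79% of all 32851 promoters of the table, and TGANTCA in 1 of 14 (the second promoter of Map2k7) and in 7.81% of all. These matches describe the letters of the windows and say nothing of binding.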

How the data were processed

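Whole-retina RNA from 3 ONC and 3 sham pools was sequenced. The strand setting of the counting is not given in the sources used here. Mapping was done by the authors in CLC Genomics Workbench, allowing 2 mismatches, who deposited per gene the counts of reads on exons and on whole genes (total and unique, not normalized) and the RPKM values, which divide exon reads by exon length and by all reads on genes. A column of group mean RPKM in 1 table was not used. The paper and the labels name mm9, but the deposited positions match GRCm38 for 9 of 10 members, 7 by a shared start or end in the RefSeq gene table and 8 by the start site of a RefSeq promoter. Positions are given as deposited.

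Groups and replicate numbers came from the sample labels. The 13670 genes whose mean RPKM exceeded 0.3 in either group were tested on total exon reads with edgeR 4.0.16 in R 4.3.3 (TMM, glmQLFit and glmQLFTest, condition as the only term, two-sided), with Benjamini-Hochberg adjustment over all of them. A gene rose or fell where the adjusted p was under 0.1. The common biological coefficient of variation was 9.17%. The SE is the log2FC divided by the square root of the F statistic, in size. Intron reads (whole gene minus exon) were tested in the same way for 13821 genes with a mean of at least 10 in one group. Alternatives used DESeq2 1.42.0 and limma 3.58.1, the latter on log2(RPKM + 0.1, 1 or 0.01). Figures and summaries used Python 3.11.15, pandas 2.3.3, numpy 2.4.6 and matplotlib 3.10.9. Coding sequences came from GENCODE transcripts and promoters from RefSeq. All 102 listed genes were matched, 4 of them by older symbols.

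The 10 members, the gene lists, the tests and the alternatives were chosen with earlier results of these data known. Named are all members, up to 4 genes per list that passed by size of change, or the gene of lowest p where none passed.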

Additional observations from a re-analysis of the deposited data

How the results depend on the processing

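Fits with DESeq2 size factors, the DESeq2 Wald test, other filters and unique exon reads left 2 members past the threshold. The count of members was 1 without TMM, with total gene reads and with junction reads (chosen after seeing the data), 0 with limma on log2 RPKM at each pseudocount, and 1 to 3 when a sample was left out. With division by all reads on genes it was 2, but these were Mapk10 and Map3k12. Over all genes, 833 passed in the main analysis, 1730 with division by all reads on genes, 380 with junction reads and 371 (without sham 2) to 2031 (without ONC 1) when a sample was left out. The 227 DEGs became 350 with division by all reads on genes, 349 with total gene reads and 153 to 353 when a sample was left out. The 19 genes of the lists became 9 with junction reads and 11 to 33 when a sample was left out. The change in the Mapk10 share stayed between -3.65 and -4.84 points.

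On introns, 380 genes passed in the main analysis, 173 without TMM, 1294 with the scaling of exon reads, 1108 without a filter, 5 with exon-intron border reads (chosen after seeing the data) and 0 (without sham 2 or ONC 2) to 930 when a sample was left out. The members past the threshold were 0 except with the scaling of exon reads, where there was 1.

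Same-numbered samples did not deviate together (r = -0.0482, -0.0437 and -0.0159), so the numbers were not treated as a pairing. With the replicate block 1 member passed in place of 2, and Map3k13 had an adjusted p of 0.122 by edgeR.

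The direction of small exon log2FC turned for Map2k4 (-0.111 with total gene reads, and -0.0215 without ONC 2 to 0.0533 without ONC 3), Mapk8 (0.0867 with division by all reads on genes, 0.0901, 0.0841 and 0.0908 with limma, and -0.0789 without sham 3 to 0.0301 without sham 2), Mapk9 (0.00291 without TMM, 0.0991 with division by all reads on genes, 0.0987, 0.0950 and 0.0991 with limma, 0.0556 with junction reads), Mapk8ip1 (-0.0649 with junction reads, and -0.00641 without sham 2 to 0.0296 without sham 3) and Mapk8ip3 (0.0390 with division by all reads on genes, 0.0409, 0.0397 and 0.0410 with limma). On introns it turned with the scaling of exon reads for Map3k12 (-0.108), Map2k7 (-0.202), Mapk9 (-0.173) and Mapk8ip1 (-0.0320), and without TMM for Mapk8 (0.0576). With border reads it turned for Map3k13 (0.295, SE 0.902), Map2k7 (-0.182, SE 0.296), Mapk10 (0.231, SE 0.944) and Mapk8ip3 (-0.524, SE 0.237). Border reads were few for Map3k13 (4 to 13 per sample) and for Mapk10 (2 to 11 per sample). Leaving out single samples gave -0.0406 to 0.125 for Map2k7, -0.0457 to 0.144 for Mapk9 and -0.157 to 0.518 for Mapk8ip1. Their causes were not tested.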
